A study of Mus musculus with 3 samples.

Results

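The 1000 highest shared FOXF1 sites are the places in the mouse genome where both chromatin immunoprecipitations of this study gave their strongest signal. A summit, the single base at the top of a called peak, was paired with a summit of the other replicate when each was the other's nearest and they lay at most 100 bp apart, and the shared site was placed midway. Summits were ranked by score within each full list, the ranks of a pair were averaged, and the 1000 pairs with the lowest mean rank were kept of 51013 shared sites (1.96%). The sites were thus chosen by their scores, which are described below with no test.

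The tissue was whole lung of wild-type C57BL/6 embryos at embryonic day 18.5. FOXF1 chromatin immunoprecipitation with sequencing (ChIP-seq) was done in 2 biological replicates, each a pool of 3 lungs, and peaks were called against an input library of the same stage made without antibody (2% input). The nuclear lists held 107378 summits in replicate 1 and 61172 in replicate 2. The sequencing depth behind these calls is unknown here. The lists hold no expression values, so the labelled tissue could not be checked against marker levels, and a lung holds many cell types whose sites cannot be told apart here.

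FOXF1 is a forkhead transcription factor, a protein that binds DNA through a winged-helix domain and favours AT-rich sequences around the core TGTTTAC. In the lung it is made in mesenchymal cells and in endothelium, downstream of hedgehog signals from the epithelium, and mice with too little of it have defects of the lung vessels. Strong sites of such factors often lie in enhancers, which act on genes over a distance, so the nearest gene of a site is a landmark and not a shown target.

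Of the 1000 sites, 13 lay in an annotated promoter window, here 250 bases before to 50 after a start of transcription. These windows are the places where the sequence under a site could be read, from RefSeq on GRCm38.p6, the assembly of mm10. The first 8 in order of rank are given 5′ to 3′ along the gene's strand. Capitals mark each match to the loose forkhead pattern TGTTTNC on either strand.
Btbd3, chr2:138278243-138278542, plus strand: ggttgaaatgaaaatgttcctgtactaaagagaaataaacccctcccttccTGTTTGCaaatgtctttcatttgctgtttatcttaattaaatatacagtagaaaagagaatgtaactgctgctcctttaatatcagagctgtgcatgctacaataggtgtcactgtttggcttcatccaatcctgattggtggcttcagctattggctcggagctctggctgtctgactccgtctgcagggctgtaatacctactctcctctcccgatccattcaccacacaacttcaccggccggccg
Sh3d19, chr3:85970868-85971167, plus strand: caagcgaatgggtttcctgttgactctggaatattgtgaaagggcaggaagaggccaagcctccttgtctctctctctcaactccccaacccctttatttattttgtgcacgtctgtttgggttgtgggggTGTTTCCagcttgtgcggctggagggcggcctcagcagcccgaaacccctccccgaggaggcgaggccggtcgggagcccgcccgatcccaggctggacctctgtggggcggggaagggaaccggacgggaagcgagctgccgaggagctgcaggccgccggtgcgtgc
Gm17745, chr10:93335961-93336260, plus strand: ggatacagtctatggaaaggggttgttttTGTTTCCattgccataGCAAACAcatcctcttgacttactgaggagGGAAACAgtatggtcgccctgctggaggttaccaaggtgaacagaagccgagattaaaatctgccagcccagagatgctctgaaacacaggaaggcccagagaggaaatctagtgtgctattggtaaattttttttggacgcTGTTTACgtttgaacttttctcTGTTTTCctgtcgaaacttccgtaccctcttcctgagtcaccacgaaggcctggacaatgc
Gm30525, chr11:53307732-53308031, minus strand: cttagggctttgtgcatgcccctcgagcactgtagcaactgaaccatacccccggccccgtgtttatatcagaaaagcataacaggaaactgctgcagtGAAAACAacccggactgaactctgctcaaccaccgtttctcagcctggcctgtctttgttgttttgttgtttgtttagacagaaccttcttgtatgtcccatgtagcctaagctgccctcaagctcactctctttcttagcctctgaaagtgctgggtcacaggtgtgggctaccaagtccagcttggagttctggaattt
Dusp6, chr10:99262981-99263280, plus strand: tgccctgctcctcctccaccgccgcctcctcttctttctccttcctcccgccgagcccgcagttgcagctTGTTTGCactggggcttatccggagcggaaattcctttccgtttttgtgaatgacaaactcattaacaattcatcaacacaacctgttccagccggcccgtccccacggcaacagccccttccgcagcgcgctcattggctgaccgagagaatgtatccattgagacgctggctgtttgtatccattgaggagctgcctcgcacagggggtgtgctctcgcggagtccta
Polr2a, chr11:69758584-69758883, minus strand: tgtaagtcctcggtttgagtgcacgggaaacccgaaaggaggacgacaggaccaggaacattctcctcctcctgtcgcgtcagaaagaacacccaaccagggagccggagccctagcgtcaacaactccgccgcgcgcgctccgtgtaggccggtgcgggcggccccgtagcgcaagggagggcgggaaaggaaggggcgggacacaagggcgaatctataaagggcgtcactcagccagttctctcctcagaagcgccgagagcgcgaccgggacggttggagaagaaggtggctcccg
Pde4b, chr4:102569810-102570109, plus strand: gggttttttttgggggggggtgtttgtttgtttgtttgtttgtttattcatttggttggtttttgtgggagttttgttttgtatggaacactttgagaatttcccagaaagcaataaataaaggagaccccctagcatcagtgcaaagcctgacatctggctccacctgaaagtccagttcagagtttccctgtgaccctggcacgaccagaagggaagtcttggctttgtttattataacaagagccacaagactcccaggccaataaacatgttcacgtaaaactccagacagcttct
Malat1, chr19:5802623-5802922, minus strand: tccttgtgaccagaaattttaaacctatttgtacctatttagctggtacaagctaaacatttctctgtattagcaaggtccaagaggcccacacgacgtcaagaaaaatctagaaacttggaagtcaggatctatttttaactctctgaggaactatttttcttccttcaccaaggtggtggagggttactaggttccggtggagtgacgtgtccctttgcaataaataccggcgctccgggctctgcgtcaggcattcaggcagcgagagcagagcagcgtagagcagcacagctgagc

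In Btbd3, a BTB domain gene, the shared site was base 63 of the window, and the centre of the only match lay 8 bp from it. In Dusp6, which encodes a phosphatase that limits ERK signalling, the site was base 82, also with a match centred 8 bp away. The window of the long noncoding RNA gene Gm17745, 25034 bp from the ETS factor gene Elk3, held 5 matches, of which 1 was the full core TGTTTAC, and the nearest was centred 10 bp from the site at base 233. In Sh3d19, an adaptor protein gene, the nearest match was centred 30 bp away, and in Gm30525, a long noncoding RNA gene, 58 bp away. Polr2a, which encodes the largest subunit of RNA polymerase II, the phosphodiesterase gene Pde4b and the abundant nuclear RNA gene Malat1 had no match in these 300 bases, and their sites lay 26 bp after, 14 bp before and 31 bp after the annotated start. The remaining 5 windows belonged to the lectin gene Clec2d, to Cavin2, a caveolae component of endothelium, and to the noncoding genes 2900052L18Rik, 1700011C11Rik and Gm30970. Of the 13 windows, 7 belonged to protein-coding genes and 6 to long noncoding RNA genes. The share of each kind over all windows was not counted.

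Forkhead letters were frequent in these windows and in those of the following ranks, and rarer under lower sites. The loose pattern was present in 9 of 13 windows with one of the 1000 sites (69.2%, 95% exact interval 38.6 to 90.9%), against 17.1% of the 5149 windows with another shared site (16.1 to 18.1%) and 20.5% of all 32851 windows. The full core TGTTTAC was present in 3 of 13 (23.1%, 5.04 to 53.8%), against 4.12% of windows with another shared site (3.59 to 4.70%) and 3.65% of all windows. These 3 windows all belonged to long noncoding RNA genes, Gm17745, 2900052L18Rik and Gm30970. By rank, the core was in 23.1% of windows for ranks 1 to 1000, 20.6% for 1001 to 5000 (49 of 238 windows), 5.92% for 5001 to 10000, 4.09% for 10001 to 20000 and 2.35% below that. Both forkhead patterns overlap, since every TGTTTAC also matches TGTTTNC.

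Close to the site the loose pattern was also more frequent than at other sites, while for the core the interval does not separate them. Where the site and the 50 bases on either side lay whole within a window, the core was there for 2 of 11 of the highest sites (18.2%, 2.28 to 51.8%) and for 92 of 2378 other sites (3.87%, 3.13 to 4.72%). The interval of the 11 includes the share of the others. The loose pattern was there for 5 of 11 (45.5%, 16.7 to 76.6%) and for 9.59% of the others (8.43 to 10.8%). With 11 sites the intervals are wide, and a match is a run of letters, not a shown binding site.

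The GC box was less frequent, and GC content lower, in the 13 windows than in windows with another shared site. The GC box GGGCGG was in 2 of 13 windows (15.4%, 1.92 to 45.4%), against 67.8% of windows with another shared site (66.5 to 69.1%). It was in 35.7% of all windows, a share that the interval of the 13 includes. Mean GC content was 49.4% against 62.3%, with 53.8% over all windows. The ETS pattern CCGGAAG was in 1 of 13 (7.69%, 0.195 to 36.0%) against 23.7%, with 8.86% over all windows. Its interval includes both of these shares. The other ETS pattern, CAGGAAG, was in 3 of 13 (23.1%, 5.04 to 53.8%) against 14.8% (13.8 to 15.8%), with 13.3% over all windows. The AP-1 pattern TGANTCA was in 2 of 13 (15.4%) against 3.90%, with 7.81% over all windows. The CCAAT box was in 7 of 13 (53.8%, 25.1 to 80.8%) against 36.4%, with 37.4% over all windows, and the TATA pattern TATAAA was in 3 of 13 (23.1%) against 6.84%, with 13.6% over all windows. The GATA pattern AGATAA and the RUNX pattern TGTGGTT were in 1 window each, and in 11.2% and 5.27% of all windows. The SOX pattern CCATTGT was in 0 of 13 windows, and so was the TEAD pattern GGAATG, which all windows held in 3.66% and 14.7%. The NRF1 pattern GCGCATG and the YY1 pattern AAGATGG were also in 0 of 13, which allows a share of up to 24.7% for each, and in 3.91% and 6.34% of all windows. All patterns were searched on both strands.

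**Figure D1:**
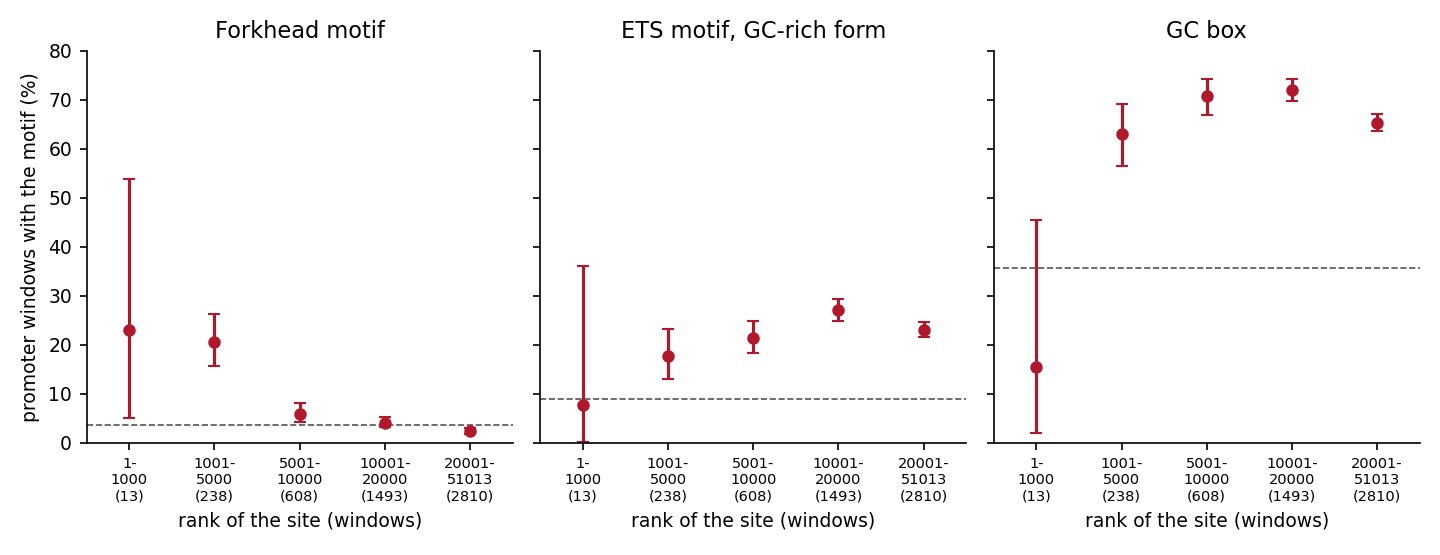
Share of promoter windows (300 bases) holding the forkhead core, the GC-rich ETS pattern and the GC box, by rank of the highest shared site in the window; points are percentages, bars 95% exact intervals, numbers in brackets the windows in each rank group, and the dashed line the share over all 32851 windows. The forkhead share is 23.1% and 20.6% in the first groups and 2.35% in the last, while the GC box share is 15.4% in the first group and between 63.0% and 72.0% in the others.

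The score is the authors' −log10 significance of the summit (p or q is not stated), which depends on depth and is not compared in size between replicates. Among the 1000 sites it ran from 165.9 to 354.5 in replicate 1, with a median of 215.4, and from 85.3 to 231.9 in replicate 2, with a median of 111.3. Pairs of scores in brackets below give replicate 1 and then replicate 2. Over the other 50013 shared sites the medians were 43.2 and 19.1. The highest site, in Upf2, held the first rank in both replicates. The last sites kept lay in Gna14 (208.6 in replicate 1 and 88.7 in replicate 2) and Diaph1 (200.8 and 91.1). The first left out lay near Bach1 (187.1 and 96.5) and near Spred1 (203.3 and 90.5), so sites on either side of the limit had like scores.

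**Figure D2:**
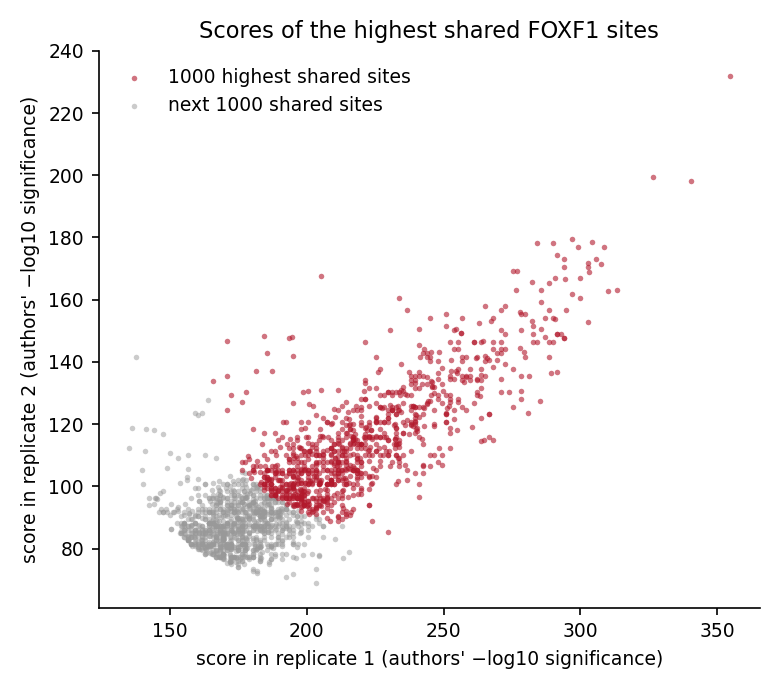
Score in replicate 2 against score in replicate 1 (both the authors' −log10 significance) for the 1000 highest shared sites and for the next 1000; each point is a site. The border between the groups is the limit that the mean rank sets, and the highest site stands apart at 354.5 and 231.9.

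Each replicate, read for the sites that the other alone would choose, also placed them near its top. Of the 1000 highest summits of replicate 1, 981 were paired, and their median rank in replicate 2 was 533 of 61172 (quartiles 263.5 to 874.5), with 782 within its first 1000. Of the 1000 highest summits of replicate 2, 966 were paired, with a median rank in replicate 1 of 499 of 107378 and 779 within its first 1000. Over all shared sites the median rank was 28744.5 in replicate 2 and 27407.5 in replicate 1. The input was shared by both lists, so they are not fully independent.

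A few of the 1000 sites ranked far apart in the replicates. The sites placed higher in replicate 1 were in Ubash3b (rank 344.5 in replicate 1 and 1752.5 in replicate 2), in Sgms1 (390 and 1498) and near Ngly1 (552 and 1481.5). Those placed higher in replicate 2 included the sites near Taf12, a subunit of the general transcription factor TFIID (1850.5 in replicate 1 and 181 in replicate 2), and near Snx6 (1670 and 77.5). The sites near Taf12 and Snx6 lay 4192 and 7839 bp from a gene end, while those of Ubash3b, Sgms1 and Ngly1 lay 24710, 59520 and 5085 bp from one.

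The strongest sites were mostly distant from gene ends. Only 35 of 1000 lay within 1 kb of either annotated end of a protein-coding gene (3.50%, 95% exact interval 2.45 to 4.83%), against 17.5% of the other shared sites (17.2 to 17.9%). Sites over 100 kb from any protein-coding gene made up 20.4% (17.9 to 23.0%), against 11.2% of the others (10.9 to 11.5%). The share inside a gene and over 1 kb from its ends was 45.0% (41.9 to 48.1%) against 44.7%, and the share outside genes at up to 100 kb was 31.1% (28.2 to 34.1%) against 26.6%. The median distance to the nearest end was 40959 bp, against 20628 bp for the others. No test was run, since sites are not replicates and there are 2 libraries of 1 group; these exact intervals cover counting error only.

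The share near gene ends was lowest at the top of the ranking and did not change evenly below it. Among 51 rank groups of about 1000 sites, the highest group had the lowest share near gene ends and the highest share over 100 kb from genes. In the other 50 groups the first share ran from 5.50 to 26.7%, with a median of 17.1%, and the second from 5.53 to 15.4%, with a median of 11.2%. The next 1000 sites had 5.50% and 15.4%, and the highest share near gene ends was in the group of the lowest ranks. The 1000 highest summits of replicate 2 taken alone had 6.10% near gene ends and those of replicate 1 had 3.40%. When all annotated genes were counted, noncoding ones included, 8% of the 1000 sites lay within 1 kb of an end, against 22.3% of the others, and 2.70% lay over 100 kb from any gene, against 1.53%. By starts of transcription alone, off chromosome 18, 4.14% of 942 sites lay within 1 kb of one, against 17.8% of 48074 others, and the median distance to a start was 31721 bp against 19329 bp.

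**Figure D3:**
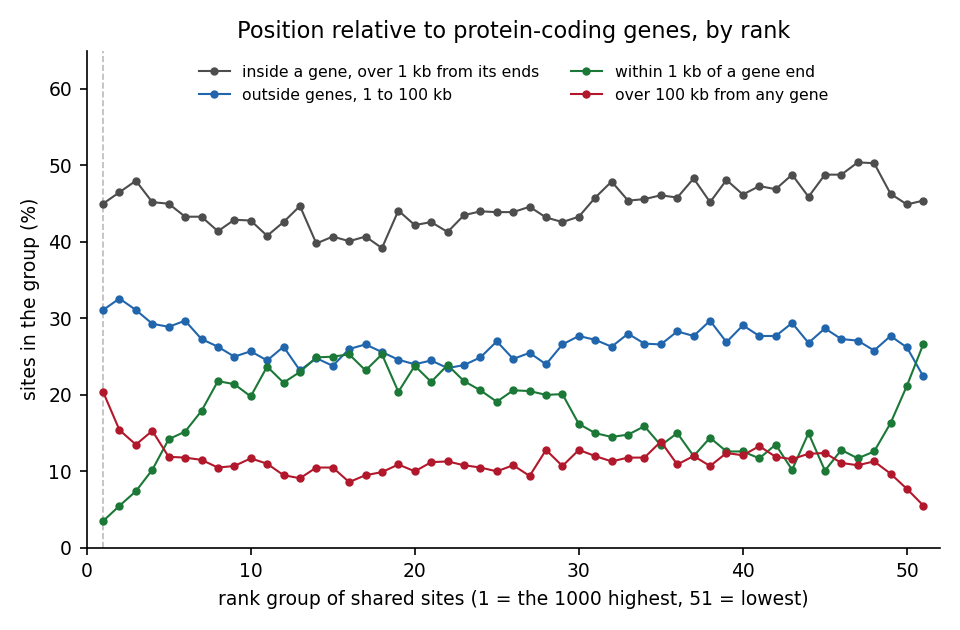
Percentage of shared sites in each position class relative to protein-coding genes, for 51 rank groups of 1000 sites (1013 in the last); the dashed line marks the 1000 highest. The share within 1 kb of a gene end is 3.50% in the first group and has a median of 17.1% over the others, while the share over 100 kb away is 20.4% in the first group.

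**Figure D4:**
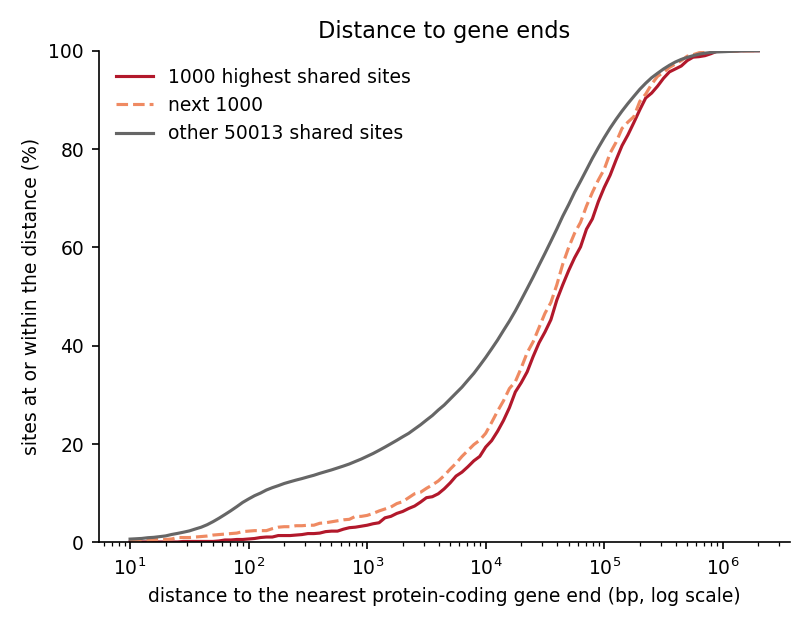
Cumulative percentage of sites by distance to the nearest end of a protein-coding gene (log scale), for the 1000 highest sites, the next 1000 and the other 50013 shared sites. The curve of the 1000 sites runs lowest at short distances; the median distance is 40959 bp, against 20628 bp for the other 50013 sites.

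The 35 sites near gene ends ran from Ackr4, at place 19, to the kinase gene Nlk, at place 943. They included genes of the general machinery, such as Polr2a (194.6 and 148.0), the linker histone gene H1f4 (193.7 and 147.8) and Gtf2a1 of the TFIIA complex (177.7 and 130.5). These 3 sites ranked higher in replicate 2 than in replicate 1. Others were Itga2 (259.5 and 135.4), the homeobox gene Meis1 (200.6 and 100.7), the death receptor gene Fas (203.3 and 105.4), Arap3, a regulator of small GTPases (199.2 and 93.9), and the lipid kinase gene Pik3ca (189.7 and 98.4). These names were chosen after their values were seen.

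At the 20 highest sites, 6 lay inside a protein-coding gene, 5 outside within 100 kb, 8 farther away and 1 near an end. The first was in Upf2, a gene of nonsense-mediated RNA decay, at chromosome 2 position 6015217, where it scored 354.5 (replicate 1) and 231.9 (replicate 2). It stood alone, with 0 other shared sites within 50 kb. Next came a site in the kinesin motor gene Kif13a (340.3 and 198.2) and one in Raver2, an RNA-binding protein gene (326.4 and 199.5), then one in Lrmda (304.1 and 178.4).

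Some of the following sites had a gene of vessels or of transcription as their nearest, and the share of such genes was not counted. The T-box factor gene Tbx3 was the nearest of a site 100205 bp away, at chromosome 5 position 119570329 (308.7 and 177.0). The forkhead factor gene Foxp1 held one at chromosome 6 position 99012022 (307.6 and 171.4). Sox17, a transcription factor of arterial endothelium, was the nearest gene of a site 120354 bp away (310.2 and 162.7). Both the Tbx3 and the Sox17 site lay beyond the 100 kb limit used below for the gene lists, so these sites credit neither gene there. The proteoglycan-cleaving protease genes Adamts9 and Adamts1 were nearest at 16683 and 47733 bp.

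The nearest genes of the others included Csnk1g3, Lrig3, Plppr4, Sptssa, Zfp608, Agr3, Plk2, Cd200, Ackr4 and Ccbe1. Ackr4, a scavenging chemokine receptor, had the one near an end, 808 bp inside it and within the overlapping gene Acad11 (289.9 and 178.3). Ccbe1, a secreted factor of lymphatic vessel growth, held its site 18726 bp from an end (294.3 and 166.5). Plk2, Lrig3, Agr3, Plppr4 and Sptssa were 165455 to 282671 bp away.

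The general and the lung capillary endothelial markers had the highest shares of genes with a site among the 9 cell type lists. None of the 10 lymphatic endothelial genes had one (0%, up to 30.8%), which are too few genes to show a lack. A gene was credited with a site when it was the nearest protein-coding gene within 100 kb, which held for 652 of 21887 genes (2.98%). Of 30 general endothelial genes 12 had one of the 1000 sites (40.0%, 22.7 to 59.4%), and of 20 genes of lung capillary endothelium 8 had one (40.0%, 19.1 to 63.9%). They carried 21 and 10 of the sites. A shared site of any rank was credited to 29 of the general and 19 of the capillary genes, against 58.2% of all protein-coding genes. Crediting a gene with any of the 1000 sites within 100 kb gave 13 and 11 genes, against 7.84% of all genes. All gene lists were chosen with earlier results of these data known, so these shares are a description and no independent check.

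Among the general endothelial genes, Cldn5, a tight junction protein of endothelium, came first, with a site 56057 bp away (272.5 and 157.9). Erg, an ETS factor that keeps endothelial identity, held one inside the gene (256.6 and 140.3). Clec14a, an endothelial lectin, had 3 sites, the first 54935 bp away (250.8 and 123.5). Tek, the angiopoietin receptor, held 3 inside the gene, the first at chromosome 4 position 94827033 (221.3 and 128.0). The junction genes Pecam1 and Cdh5, which encodes VE-cadherin, held 1 each, and S1pr1, a sphingosine phosphate receptor, Flt1, a VEGF receptor, and Emcn, a sialomucin, had 2 each. Of the 21 sites 12 lay inside the genes over 1 kb from an end, the other 9 outside, and 0 within 1 kb of an end.

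Among the capillary genes, Kit, a receptor kinase, led, with a site 96166 bp away (277.9 and 144.3). Tmem100, a membrane protein of lung endothelium that acts downstream of ALK1 signals, had 3 sites, at 8112, 81490 and 85683 bp, the highest with scores of 266.6 and 140.7. Ednrb, the endothelin B receptor, had one at 84943 bp (225.5 and 141.6) and Cd93, a C-type lectin receptor, one at 46895 bp (225.5 and 122.3). Car4, Aplnr, Tbx3 and Clec1a had 1 each.

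The share was also higher per site. Of the 332 shared sites assigned to general endothelial genes 6.33% were among the 1000 (3.96 to 9.51%), and of the 173 of capillary genes 5.78% (2.81 to 10.4%), against 1.76% of the 45222 shared sites assigned to any protein-coding gene (1.64 to 1.89%). In the other 50 rank groups the number of general endothelial genes with a site ran from 1 to 12, with a median of 5, and 1 group reached 12; the next 1000 sites had 9. For capillary genes it ran from 0 to 9, with a median of 3, and 2 groups reached 8 or more, among them the next 1000 sites with 9. The count for general endothelium was 12 with replicate 2 alone and 11 with replicate 1 alone. Genes with one of the 1000 sites were long, with a median of 87.7 kb against 17.2 kb over all protein-coding genes; the general endothelial list had a median of 24.2 kb. The part of gene length in the counts was not tested.

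The other 7 cell type lists had 0 to 2 genes with a site, read against the 2.98% over all protein-coding genes. Of 20 smooth muscle and pericyte genes none had one (0%, up to 16.8%). A shared site of some rank was credited to 17 of them (85%), against 58.2% of all protein-coding genes, and 124 such sites were assigned to them. Of 20 fibroblast and mesenchyme genes 2 had one (10%, 1.23 to 31.7%): Pdgfra, a growth factor receptor of fibroblasts, with sites at 41266 bp (282.5 and 153.0) and 11996 bp (192.5 and 98.8), and Limch1, with one inside (217.1 and 119.9). Of 25 epithelial genes only Hopx, a marker of alveolar type 1 cells, had one (4%), and of 20 blood and immune genes only the mannose receptor gene Mrc1 (5%), with 207.4 and 105.4. None of 10 lymphatic, 10 mesothelial and 20 neuronal genes had one (up to 30.8%, 30.8% and 16.8%). Per shared site, the fibroblast list had 3 of 110 among the 1000 (2.73%, 0.566 to 7.76%), the epithelial list 1 of 56 (1.79%) and the blood list 1 of 11 (9.09%, 0.230 to 41.3%), against 1.76% over all protein-coding genes. The smooth muscle list had 0 of 124, with an interval up to 2.93%, and the lymphatic list 0 of 49, with an interval up to 7.25%. Within 100 kb but not as the nearest gene, sites lay at Lyve1 and Flt4 of the lymphatic list, Acta2, Tagln and Gucy1a1 of smooth muscle, Wnt2 of mesenchyme, Cdh1 of epithelium, Wt1 of mesothelium, Cd68 of blood and Stmn2 of neurons.

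**Figure D5:**
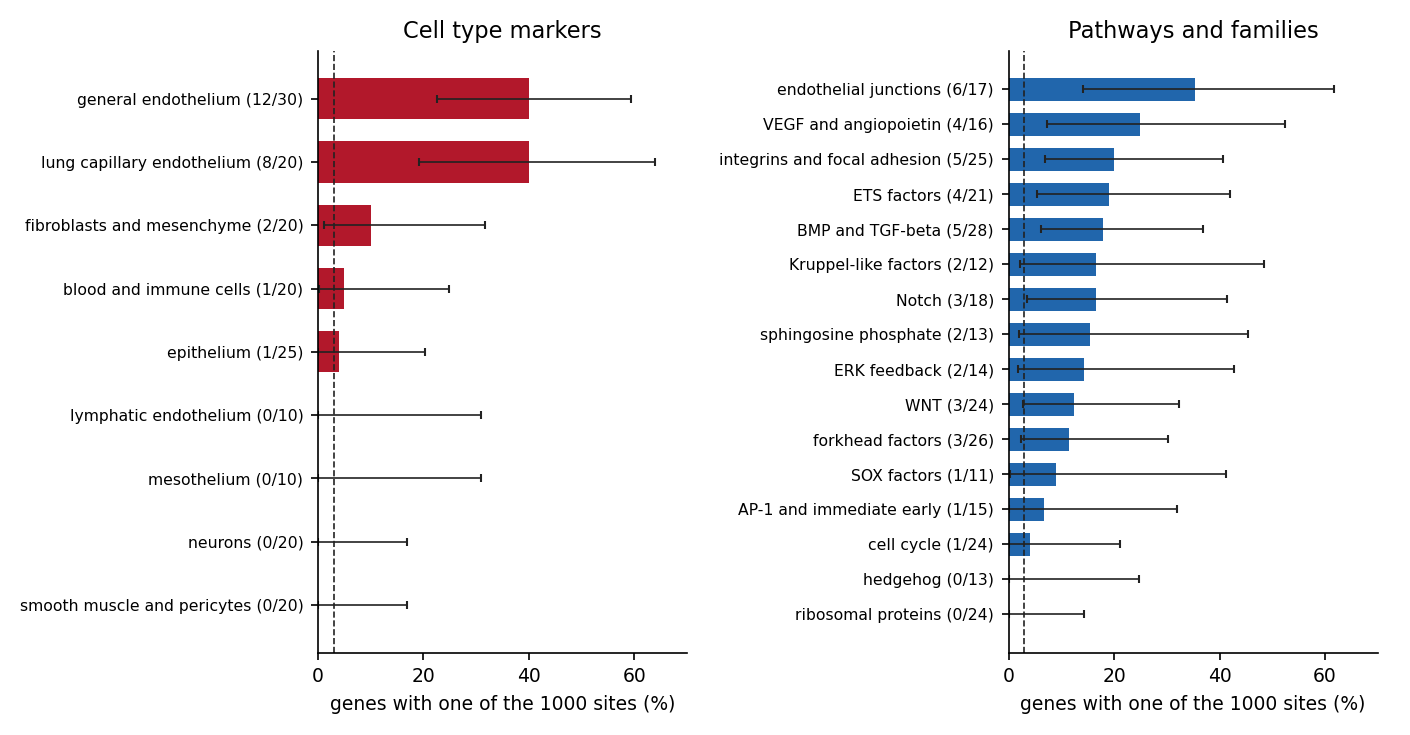
Percentage of the genes of each list that were the nearest protein-coding gene, within 100 kb, of at least one of the 1000 sites; bars are percentages with 95% exact intervals, counts stand in brackets, and the dashed line is the 2.98% over all protein-coding genes. General and capillary endothelium reach 40.0% each, and 6 of the 25 lists are at 0. The lists were chosen with earlier results of these data known.

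Among pathways, genes of endothelial junctions, VEGF and angiopoietin had the highest shares. Of 17 junction genes 6 had one of the 1000 sites (35.3%, 14.2 to 61.7%): besides Cldn5, Pecam1 and Cdh5 these were Vcl and Ctnnd1, which link adhesion complexes to actin and cadherins, and the scaffold gene Tjp1. Of 16 VEGF and angiopoietin genes 4 had one (25%, 7.27 to 52.4%), namely Tek, Kdr, Flt1 and the co-receptor gene Nrp1, which held 2 (215.7 and 118.4 for the higher-ranked one). These lists share genes with the endothelial ones. The next 1000 sites had 5 VEGF and angiopoietin genes and 5 junction genes, and of the other 50 rank groups 12 reached 4 VEGF genes and 3 reached 6 junction genes.

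BMP and TGF-beta genes with a site were mostly receptors. They were 5 of 28 (17.9%, 6.06 to 36.9%). Tgfbr3, the co-receptor betaglycan, led with 285.3 and 127.6, followed by the type II receptor gene Tgfbr2 (221.3 and 146.5), the endothelial type I receptor gene Acvrl1 (216.9 and 114.7), the signal transducer gene Smad5 (218.5 and 104.2) and the ligand gene Bmp2 (187.0 and 97.3). Of their 233 shared sites 2.15% were among the 1000, near the 1.76% over all genes. Of the other 50 rank groups 16 reached 5 genes or more, so the count is not particular to the highest sites.

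Of 25 integrin and focal adhesion genes 5 had a site (20.0%, 6.83 to 40.7%). Itga2, a collagen-binding subunit, led, and Vcl, Itga6, Itgb5 and Itgb1 followed. Of their 295 shared sites 1.69% were among the 1000. Of 18 Notch genes 3 had one (16.7%): the target genes Hey1 and Hes1 and the ligand gene Jag1. Of 13 sphingosine phosphate genes 2 had one (15.4%), S1pr1 and the transporter gene Spns2, which exports the lipid from endothelium (239.5 and 121.1). Per shared site the shares were 4.55% for Notch (1.25 to 11.2%) and 4% for sphingosine phosphate genes (0.833 to 11.2%), against 1.76% over all protein-coding genes. Of the other 50 rank groups 29 reached the integrin count, 10 the Notch count and 19 the sphingosine phosphate count. The counts of these lists are thus not particular to the highest sites.

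Among transcription factors, 4 of 21 ETS genes had a site (19%), Erg, Elk3, Etv1 and Ets1. Foxp1, Foxl1 and Foxk1 did so of 26 forkhead genes (11.5%), Klf3 and Klf7 of 12 Kruppel-like genes (16.7%), Sox11 of 11 SOX genes (9.09%) and Jund of 15 AP-1 and immediate early genes (6.67%). The WNT list had Tcf7l2, Lrp6 and Wif1 (12.5% of 24) and the ERK feedback list Dusp6 and Etv1 (14.3% of 14). Dusp6 had 2 sites, at its promoter (218.0 and 125.7) and 12163 bp away (269.6 and 142.8). No hedgehog gene of 13 and no ribosomal protein gene of 24 had one, and of 24 cell cycle genes only Cdk6, a G1 kinase, had one (4.17%). Of the 24 ribosomal genes 23 had a shared site of some rank (95.8%), against 58.2% of all protein-coding genes. Beside the 2.98% over all genes, the per-site shares were 2.76% for ETS, 3.14% for forkhead, 1.64% for Kruppel-like, 0.885% for SOX, 1.56% for AP-1, 2.13% for WNT and 2.94% for ERK feedback genes, against 1.76% over all protein-coding genes. Between 16 and 46 of the other 50 rank groups reached the same number of genes in each of these 7 lists, so the counts are not particular to the highest sites.

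Most genes with a site had a single one. Of the 652 genes 541 had 1, 84 had 2, 22 had 3, 4 had 4 and 1 had 5. The gene with 5 was Bcas3, 473 kb long and with 47 shared sites in all, with a site at chromosome 11 position 85511475 (282.5 and 165.6) as its highest. Car4 and the T-box factor genes Tbx2 and Tbx4 lie within 500 kb of it. The gene lists count Car4 and Tbx2 as lung capillary genes and Tbx4 as a mesenchyme gene. Foxp1 (597 kb), Adgrv1 (538 kb), Aff3 (455 kb) and the nuclear factor gene Nfib (217 kb) had 4 each. Of the other genes with the most sites, Lrmda, Zfp608, Fbxl7 and Denn2b were over 100 kb long, while Adamts1 spans 9.29 kb and its 3 sites lay 15217 to 47733 bp outside it. Length and number of sites did not go together throughout: Nkain2, 1208 kb long, had 1 site, while Clec14a, of 4.54 kb, and Tmem100, of 6.16 kb, had 3 each.

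The sites were mostly single at short range, although more often paired than lower ones. Another of the 1000 lay within 10 kb of 8.70% of them (7.03 to 10.6%), against 0.60 to 5.60% within the other 50 rank groups. Chains of sites at most 25 kb apart numbered 10 with 3 members and 1 with 4, the chain of 4 over 51125 bp at Aff3. One chain of 3 had Tbx3 as its nearest gene, at chromosome 5 positions 119431530 to 119464667, all over 100 kb from it. Another had Kit as its nearest, at 96166, 102361 and 115433 bp. These genes were picked after the values were seen. The other chains of 3 were nearest to Sptlc3, Pltp and Pcif1, Adgrl2, Clec2d and Cd69, Bcas3, Diaph3, Cdh2 and Zswim2. Within 50 kb a site had a median of 6 other shared sites, against 4 around the other shared sites; this median was 6 in the next 1000 as well.

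Some loci held many of the sites; these were chosen after their values were seen. In the 1028 kb from 100 kb before Pdgfra to 100 kb after Kdr, on chromosome 5, lie the receptor kinase genes Pdgfra, Kit and Kdr. This stretch held 8 of the 1000 sites among 74 shared ones, against 1000 among 51013 (1.96%) over all chromosomes. At Kdr, the main VEGF receptor, they lay inside the gene at 75946434 (207.4 and 95.8) and 75974638 (189.7 and 104.2) and 96916 bp outside it (221.7 and 119.2). A stretch of 471 kb on chromosome 6 around the lectin genes Clec2d, Clec12b and Clec1a and the activation antigen gene Cd69 held 7 of the 1000 among 43 shared sites. The highest-ranked there lay in Clec12b, at 129425352 and 588 bp from a gene end (271.1 and 146.5). The 7 among 43 are read against the same 1.96%. Since these stretches were chosen after their values were seen, whether sites gather in them was not tested.

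The Foxf1 locus itself had 1 of the 1000 sites. Of the 19 shared sites within 100 kb of Foxf1, the one at chromosome 8 position 121127560 was in the set, at place 541, with scores of 215.2 and 106.0. It lay 39406 bp from Foxf1 and 125 bp outside the forkhead gene Foxl1, its nearest gene. The same site was the only one of the 1000 within 100 kb of Fendrr, a noncoding RNA gene next to Foxf1. Foxf2 had none within 100 kb, where 9 shared sites lay, and the nearest of the 1000 was 537998 bp away, inside Gmds. Over all shared sites 1.96% were among the 1000, and counts this small cannot be told from that share.

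Paired summits of the 1000 sites lay close together. The median distance was 10 bp, against 13 bp for the other shared sites, and 51.3% were at most 10 bp apart (48.2 to 54.4%), against 43.8% (43.3 to 44.2%). Distances over 50 bp occurred at 5.80%, against 11.8%. In the other rank groups the median ran from 10 to 25 bp. Some of the highest sites were among those far apart, such as the Adamts1 site with 92 bp and the Cd200 site with 88 bp.

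The share of shared sites that were among the 1000 was lowest on X and highest on chromosome 18, leaving aside Y, whose single shared site was not among them. Chromosome X held 6 of its 1066 shared sites (0.563%, 0.207 to 1.22%), against 1.96% over all chromosomes. Chromosome 18 held 58 of 1997 (2.90%, 2.21 to 3.74%) and chromosome 10 75 of 2955 (2.54%, 2.00 to 3.17%). Of the other autosomes, shares ran from 1.43% on chromosome 9 to 2.24% on chromosome 19. Pooled lungs were used, and the labels name no sex of the embryos.

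MicroRNA genes, whose short products silence messenger RNAs, lay within 5 kb of 0.400% of the 1000 sites (4 sites, 0.109 to 1.02%). The share was 0.878% for the other shared sites, which this interval includes. One site, at chromosome 15 position 68337461, fell within the Mir30b gene and 3747 bp from Mir30d (195.5 and 101.0). Another, in the beta-arrestin gene Arrb1, lay 1767 bp from Mir326 (211.1 and 97.7), and the Hopx site lay 1432 bp from Gm51293.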

How the data were processed

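FOXF1 binding was measured in 2 biological replicates against 1 input. Peak calling by the authors used MACS2 and the mm10 build (submitters' processing notes) and, per the peak names, against the control, giving 1 list per replicate. The deposited score is −log10 of a p or q value at the summit, set by the authors' caller; no source used here names which, nor the aligner, options, duplicate handling or depth, so depth sets an unknown limit on precision. Only nuclear chromosomes were kept. The input served only inside the authors' calls.

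Positions are 1-based on mm10. Genes (21887 protein-coding of 49943) and promoter windows (32851, of 27025 genes; none on chromosome 18) came from RefSeq on GRCm38.p6. Windows around sites elsewhere need the genome and were not read. Exons, introns and UTRs were not told apart. Computation used Python 3.11.15, numpy 2.4.6, pandas 2.3.3 and scipy 1.17.1, after the pairing, annotation and motif steps were tested on simulated data. Shares carry exact (Clopper-Pearson) 95% intervals.

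The sites and the 25 gene lists were chosen with earlier results of these data known. Genes were named by a rule: those nearest to the 20 highest sites, the 10 with the most sites, up to 4 per list by rank, Foxf1, Foxf2, Fendrr, the sites at the limit and those with the largest rank differences; other names were chosen after their values were seen. Some genes that the rule names are not reported here. The alternatives tried are the pairing distance, the ranking, the number kept, each replicate alone, a score minimum, and the gene and motif definitions.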

Additional observations from a re-analysis of the deposited data

Results flagged for a closer look

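Outside the nuclear lists, mitochondrial DNA held 10 summits in replicate 1 and 6 in replicate 2. They lie outside the comparisons, no expected number is known, and the count by itself shows no enrichment. Their highest scores were 43.4 and 14.0, below the lowest scores of the 1000 sites.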

How the results depend on the processing

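Of 118 values recomputed for the 10 main results under an alternative, 102 moved by less than their interval, or stayed within 1.5 times for a count. Some of the 102 could not move. Ranking mitochondrial summits too, or a score minimum of 10, could not change the 1000 sites, which all score higher, nor the gene list counts below. Keeping 2000 sites had to retain all 1000. The values that moved further were these. Keeping 500 sites gave 6.80% with a partner within 10 kb, 340 genes, 7 general endothelial genes and 500 of the 1000 sites; keeping 2000 gave 17.9% over 100 kb from genes, 14.2% with a partner and 1190 genes. A score of at least 10 in both replicates gave a median of 5 other shared sites within 50 kb, since fewer sites are counted. A 5 kb window gave 12% at gene ends. Counting all annotated genes gave 8% at ends, 51.9% inside and 2.70% over 100 kb away. A partner window of 25 kb gave 17.0%, the loose forkhead pattern 69.2% of windows, and crediting any gene within 100 kb, an alternative chosen after seeing the data, 1715 genes. Leaving out each replicate in turn gave 3.40 to 6.10% at gene ends, 43.3 to 45.4% inside, 19.3 to 20.3% over 100 kb away, 8.20 to 10.4% with a partner, 645 to 668 genes, 11 to 12 general endothelial genes, 878 to 897 of the 1000 sites kept and 16.7 to 19.4% of windows with the forkhead core. That share was 14.3% with a pairing distance of 50 bp and 30% with 2000 sites kept, against 23.1%, all on few windows. Of 264 recomputed counts for the other gene lists, 35 moved by over 1.5 times; lung capillary genes ran from 5 to 10, endothelial junction genes from 4 to 9, smooth muscle genes from 0 to 1 and lymphatic genes stayed at 0. No paired analysis was possible because the replicates form 1 group and no test was made. The 13 promoter windows limit what can be said of motifs, and the unknown depth limits the comparison of scores between replicates.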
